A study of Mus musculus with 13 samples.

Results

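Transcripts of 8 chemokine genes were examined in the hippocampus of 5xFAD mice, a mouse model of Alzheimer's disease that carries human transgenes with familial mutations under a neuronal promoter. The genes were chosen by name as chemokines of plaque-associated microglia (Ccl2, Ccl3, Ccl4, Ccl5, Ccl6 and Cxcl16) and of neurons and other brain cells (Cx3cl1 and Cxcl12), and all 8 were found among the 36287 genes of the deposited table. Each of the 13 libraries was made from poly(A) RNA of 1 sample, whose number in the labels is taken here as that of the animal, and the p-values below measure only the spread between these samples. All animals carried the 5xFAD transgenes and received saline (4 animals, 18, 19, 32 and 38), the antibody Aducanumab, which binds aggregates of the amyloid beta peptide (4 animals, 24, 50, 56 and 58), or ACLP-NT (5 animals, 17, 27, 49, 53 and 55). The series title presents ACLP-NT, named in the labels only by this code, as a nanomedicine directed at microglial lysosomes. The labels state no age, sex, dose or treatment time, and animals without the transgenes were not analysed here, so every comparison is among 5xFAD animals.

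Chemokines are small secreted proteins that bind G protein-coupled receptors and direct the movement of leukocytes and microglia. Ccl3 and Ccl4 are the macrophage inflammatory proteins, and Ccl3 and Ccl5 act through receptors that include Ccr1. Ccl2 recruits monocytes through Ccr2. Ccl6 is a CC chemokine of rodents that is made by myeloid cells. Cxcl16 and Cx3cl1 differ from the rest in being made as membrane-anchored proteins that the proteases Adam10 and Adam17 can release. Cx3cl1, also called fractalkine, is made by neurons and binds Cx3cr1 on microglia, and Cxcl12 binds Cxcr4 and the scavenging receptor Ackr3.

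Library totals ran from 53642019 to 69734713 counts. The labelled tissue was checked against marker genes. The summed level of 4 dentate gyrus and CA field markers was 333 to 460 CPM (counts scaled to library size, after TMM) over the 13 libraries, and that of 5 neuronal markers 3170 to 4017 CPM. The summed level of 5 choroid plexus markers differed widely within every group, from 43.0 to 4830 CPM in saline, 72.9 to 4931 CPM in Aducanumab and 76.7 to 4840 CPM in ACLP-NT. Fold changes fitted with the choroid plexus score as a covariate kept their sign for every member except Ccl5 in ACLP-NT against saline (log2 fold change -0.09) and Cxcl12 in Aducanumab against saline (-0.01). The summed level of 3 neocortex markers was 70.4 to 142 CPM in saline, 45.0 to 67.2 CPM in Aducanumab, with no overlap, and 56.8 to 85.9 CPM in ACLP-NT. All 3 had estimates below 0 in both comparisons with saline, none passing the edgeR adjustment, and their part in the chemokine values was not tested. Because the RNA came from whole tissue, fewer cells of a type and less RNA per cell cannot be told apart.

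6 of the 8 members are on chromosome 11, in the coordinates of the deposited table, for which the labels and headers name no genome build. Ccl5 (ENSMUSG00000035042, chr11:83416604-83421344, minus strand), Ccl6 (ENSMUSG00000018927, chr11:83478708-83483913, minus), Ccl3 (ENSMUSG00000000982, chr11:83538670-83540181, minus) and Ccl4 (ENSMUSG00000018930, chr11:83553410-83555509, plus) lie within a span of 138.9 kb, with a gap of 13.2 kb between Ccl3 and Ccl4. Ccl2 (ENSMUSG00000035385, chr11:81926397-81928279, plus) lies 1488 kb before Ccl5. Cxcl16 (ENSMUSG00000018920, chr11:70344809-70350810, minus) is farther off on the same chromosome. Cx3cl1 (ENSMUSG00000031778) is at chr8:95498637-95509055 on the plus strand, and Cxcl12 (ENSMUSG00000061353) at chr6:117145496-117158328 on the plus strand. Genes annotated on the opposite strand overlap 3 members, and neither labels nor headers say whether counting used strand. Gm53692 overlaps Ccl3 and had a mean of 1.19 CPM, 26.9% of the Ccl3 level. Zmynd15 overlaps Cxcl16 at 1.39 CPM, 28.5% of its level, and E230016K23Rik overlaps Ccl6 at 0.591% of its level. The Ccl3 and Cxcl16 values may therefore include reads of their partners.

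RefSeq promoter sequences (build GRCm38.p6, 250 bases before the start) matched 4 of the 8 members. Those of Ccl3 and Ccl6 are shown because these genes had a Pearson r of 0.792 over the libraries, though their rank correlation did not pass after adjustment. That of Cx3cl1 is shown because this gene is the most abundant member. Capitals mark 4 motifs on either strand. GAGGAA holds the core letters of sites bound by PU.1, a transcription factor of myeloid cells, and AGGAAG those of other ETS factors. TATAAA holds the letters of the TATA box, and GGGCGG those of the Sp1 box. The PU.1 and ETS motifs overlap at 1 place in Cx3cl1.
Ccl3, chr11:83649379-83649628, minus strand: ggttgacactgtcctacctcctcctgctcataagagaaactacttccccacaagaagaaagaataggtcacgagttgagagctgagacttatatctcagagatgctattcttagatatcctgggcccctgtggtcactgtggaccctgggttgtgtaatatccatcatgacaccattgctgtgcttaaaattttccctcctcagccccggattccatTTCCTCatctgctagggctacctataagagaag
Ccl6, chr11:83593088-83593337, minus strand: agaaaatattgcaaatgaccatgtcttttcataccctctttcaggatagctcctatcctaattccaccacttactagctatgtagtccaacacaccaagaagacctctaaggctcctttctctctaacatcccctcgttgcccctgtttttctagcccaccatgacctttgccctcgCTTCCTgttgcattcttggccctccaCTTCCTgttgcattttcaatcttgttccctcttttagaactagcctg
Cx3cl1, chr8:94771930-94772179, plus strand: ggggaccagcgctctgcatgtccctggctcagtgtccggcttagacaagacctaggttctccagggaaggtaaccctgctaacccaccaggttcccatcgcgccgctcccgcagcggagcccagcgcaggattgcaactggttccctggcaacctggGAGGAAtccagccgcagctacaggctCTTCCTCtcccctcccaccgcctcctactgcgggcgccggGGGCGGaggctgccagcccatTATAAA
The Ccl3 window held GAGGAA 1 time and the Ccl6 window AGGAAG 2 times. The Cx3cl1 window held GAGGAA 2 times and each of the other motifs 1 time. Its TATAAA begins 6 bases before the annotated start, at the very end of the window, and is a match of letters only. Over 32841 promoters of this length, 23.3% held the PU.1 motif, 29.5% the ETS motif, 12.4% the TATA box and 32.8% the Sp1 box. The AP-1 letters TGANTCA were not in any of the 4 windows and were in 6.75% of all promoters. The windows of Ccl3 and Ccl6 held 2 CpG dinucleotides each and those of Cx3cl1 and Cxcl12 14 each, with a median of 6 over all promoters. The Ccl3 and Ccl6 windows were 46.8% and 45.2% G and C, against 64.8% in Cx3cl1, 64.4% in Cxcl12 and a median of 52.4%.

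Levels were compared between genes per length, in FPKM (fragments per kilobase of transcript scaled to library size). Cx3cl1 was highest in all 13 libraries, with a mean of 103 FPKM (85.8 to 114). Ccl6 followed with 8.26 FPKM (5.15 to 12.7) and Cxcl12 with 7.30 FPKM (6.52 to 8.86). Ccl6 was above Cxcl12 in 8 of 13 libraries, so the order of these neighbours is not clear. Ccl3 had 5.33 FPKM (3.15 to 8.32) and was above Ccl4, with 2.02 FPKM (1.40 to 2.83), in all 13. Cxcl16 had 1.495 FPKM (0.964 to 2.11) and was below Ccl4 in 11 of 13 libraries. Ccl5, with 0.343 FPKM (0.135 to 0.648), and Ccl2, with 0.144 FPKM (0 to 0.435), were close to the limit of what was counted, and Ccl5 was above Ccl2 in 11 of 13. The mean count behind these values was 26876 for Cx3cl1, 995 for Ccl6, 89.8 for Ccl4, 22.9 for Ccl5 and 11.6 for Ccl2.

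**Figure D1:**
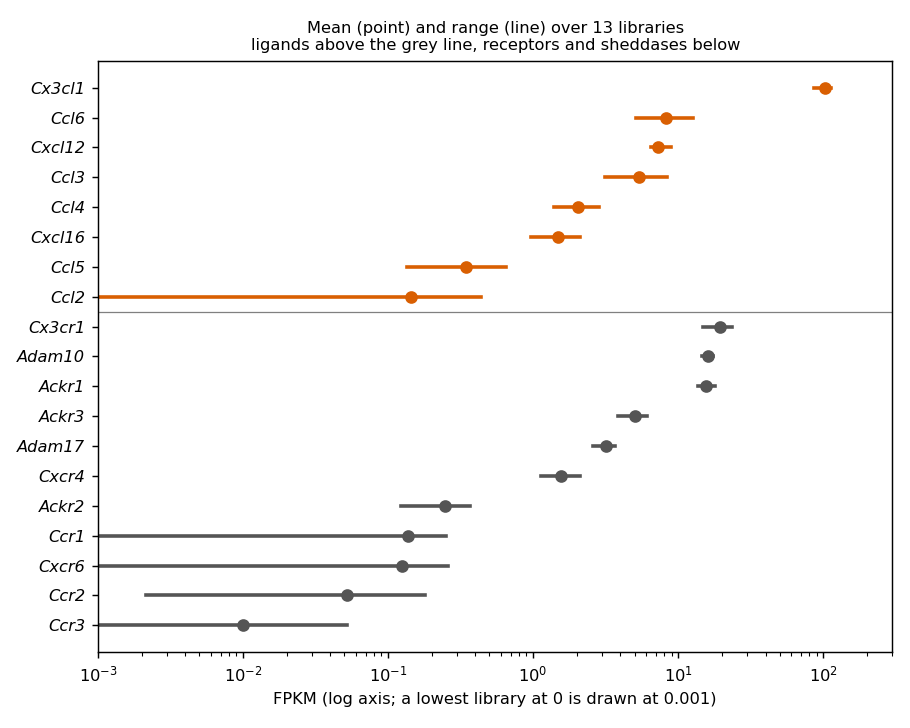
Level of the 8 chemokines (orange) and of 11 receptors, scavenging receptors and sheddases (grey) in FPKM on a log axis; points are means and lines the range over 13 libraries. Cx3cl1 has the highest mean at 103 FPKM, while Ccl2, Ccr1, Cxcr6 and Ccr3 reach 0 in at least 1 library.

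Members also differed in how much they varied. Over the 13 libraries the coefficient of variation of CPM was 7.59% for Cx3cl1 and 8.28% for Cxcl12, against 26.7% for Ccl3, 25.0% for Ccl6, 22.2% for Cxcl16 and 21.9% for Ccl4. Counting error alone gives 6.05% for Ccl3, 3.17% for Ccl6, 5.76% for Cxcl16 and 10.6% for Ccl4. For Ccl5 the variation was 39.5% with a counting error of 20.9%, and for Ccl2 85.3% with 29.3%. In the table, counts of 4 (12910 values) were more frequent than counts of 3 (9328) or 5 (8094), so a low count may not stand for that many separate fragments, and these counting errors are then too small.

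No member passed the test in any comparison. With ACLP-NT against saline, edgeR's quasi-likelihood test with Benjamini-Hochberg adjustment over 22065 genes called 0 members of 8, beside 0% of all genes tested. At an unadjusted p under 0.05 it found 0 members, beside 1298 genes or 5.88% of those tested, and DESeq2 called 9 genes or 0.0408%, with no member among them. The estimate was below 0 for 6 of 8 members, beside 50.6% of all genes, and the members' median log2 fold change was -0.33, beside -0.0015 over all genes. These are descriptions of the members and not a test of them as a list.

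Ccl3, a ligand of Ccr1, had 5.00, 4.76, 5.68 and 5.02 CPM in the saline animals 18, 19, 32 and 38. It had 3.80, 3.35, 3.54 and 6.77 CPM in the Aducanumab animals 24, 50, 56 and 58. In the ACLP-NT animals 17, 27, 49, 53 and 55 it had 5.19, 2.93, 3.89, 2.62 and 4.74 CPM. Of the Aducanumab libraries 3 of 4 and of the ACLP-NT libraries 4 of 5 were below every saline library, but Aducanumab 58 was the highest of all 13, and the groups overlap. The log2 fold change was -0.40 ± 0.23 (SE) for ACLP-NT against saline (edgeR adjusted p = 0.878) and -0.23 ± 0.25 for Aducanumab against saline (edgeR adjusted p = 0.9997). The latter was -0.52 without Aducanumab 58 and -0.12 without Aducanumab 50. The overlapping transcript Gm53692 had a mean of 1.67 CPM in saline, 0.958 in Aducanumab and 0.979 in ACLP-NT; its part in the Ccl3 values was not tested.

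Ccl6, the most abundant CC chemokine among the members, had 15.9, 14.4, 24.7 and 19.7 CPM in saline. Its levels were 18.9, 13.1, 12.7 and 17.4 CPM in Aducanumab and 16.7, 10.5, 16.3, 9.97 and 17.8 CPM in ACLP-NT, in the same animal order. The lowest libraries were ACLP-NT 27 and 53 and the highest was saline 32, with the groups overlapping. The log2 fold change for ACLP-NT against saline was -0.39 ± 0.20 (SE), with a 95% interval from -0.83 to 0.05 (edgeR adjusted p = 0.858). Without saline 32 it was -0.22.

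Cxcl16, the membrane-anchored ligand of Cxcr6, had 4.70, 4.89, 5.80 and 6.69 CPM in saline. It had 4.95, 5.24, 3.37 and 6.77 CPM in Aducanumab and 4.67, 3.18, 4.64, 3.98 and 4.50 CPM in ACLP-NT. All 5 ACLP-NT libraries were below all 4 saline libraries, narrowly, as the highest of the former was 4.67 and the lowest of the latter 4.70 CPM. This was the only one of 8 members whose groups did not overlap in this comparison, beside 2.26% of all genes tested (1.33% in the lower direction). The log2 fold change was -0.40 ± 0.19 (SE) with an interval from -0.80 to 0.00 (edgeR adjusted p = 0.839). An exact two-sided permutation test gave p = 0.00794, the smallest it can give with 5 against 4 animals, and 0.190 after adjustment over the 24 tests of 8 members in 3 comparisons. Groups that do not overlap put this test at or near that smallest value by construction, so it adds no separate support. Against Aducanumab the ACLP-NT level overlapped, with a log2 fold change of -0.28 ± 0.19. This was -0.11 without Aducanumab 58 and -0.43 without Aducanumab 56.

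Ccl4, the neighbour of Ccl3, had 1.14, 1.97, 2.03 and 1.44 CPM in saline. It had 1.71, 1.298, 1.44 and 0.981 CPM in Aducanumab and 1.37, 1.10, 1.42, 1.29 and 1.63 CPM in ACLP-NT. The groups overlap, and the log2 fold changes against saline were -0.27 ± 0.22 (SE) for ACLP-NT and -0.28 ± 0.23 for Aducanumab (edgeR adjusted p = 0.934 and 0.9997). The first was -0.41 without saline 18 and -0.15 without saline 32, and the second -0.42 without saline 18 and -0.15 without Aducanumab 58.

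Ccl2, the ligand of Ccr2, was counted only 3, 23, 37 and 9 times in saline. Its counts were 20, 14, 15 and 7 in Aducanumab and 8, 0, 0, 8 and 7 in ACLP-NT, which had no count in animals 27 and 49. In those 2 libraries a count of 0 allows up to 0.0492 and 0.0460 CPM (3 counts of the scaled library), against 0.0524 CPM in saline 18. The estimate for ACLP-NT against saline was -1.83 ± 0.89 (SE, log2 scale), with an interval from -3.74 to 0.08 (edgeR adjusted p = 0.839). It rests on these low counts and in part on saline 32. Without saline 32 it was -1.24, and without ACLP-NT 53 it was -2.18. Ccl5, a chemokine that attracts T cells, had counts of 9 to 39, with 0.342 ± 0.145 CPM in saline (SD, n = 4), 0.416 ± 0.175 in Aducanumab (n = 4) and 0.352 ± 0.146 in ACLP-NT (n = 5). Its log2 fold change for ACLP-NT against saline had an interval from -0.88 to 0.96. T and NK cells, which also make Ccl5, were represented by 5 markers whose sum stayed between 0.280 and 2.48 CPM.

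The 2 chemokines of neurons and other brain cells had narrow intervals. Cx3cl1 had 483, 464, 428 and 400 CPM in saline, 418, 431, 450 and 358 in Aducanumab, and 455, 466, 422, 460 and 444 in ACLP-NT. Aducanumab 58 was the lowest and saline 18 the highest, and the groups overlap. The log2 fold change was 0.02 for ACLP-NT against saline, with an interval from -0.13 to 0.16, -0.10 for Aducanumab against saline (-0.25 to 0.05) and 0.12 for ACLP-NT against Aducanumab (-0.03 to 0.26). Without Aducanumab 58 the last 2 were -0.033 and 0.053. With the microglial marker score described further on as a covariate, the value for Aducanumab against saline was -0.20 (-0.35 to -0.04, edgeR unadjusted p = 0.0180, adjusted 0.748). That score did not overlap between saline and Aducanumab, so this value leans on extrapolation. Cxcl12 had 60.5, 69.9, 65.4 and 62.3 CPM in saline, 57.9, 63.3, 62.3 and 76.8 in Aducanumab, and 61.8, 70.4, 57.9, 65.2 and 62.9 in ACLP-NT. Its groups overlap throughout, with log2 fold changes of -0.02 (interval -0.19 to 0.15) and 0.01 (-0.16 to 0.19) against saline.

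**Figure D2:**
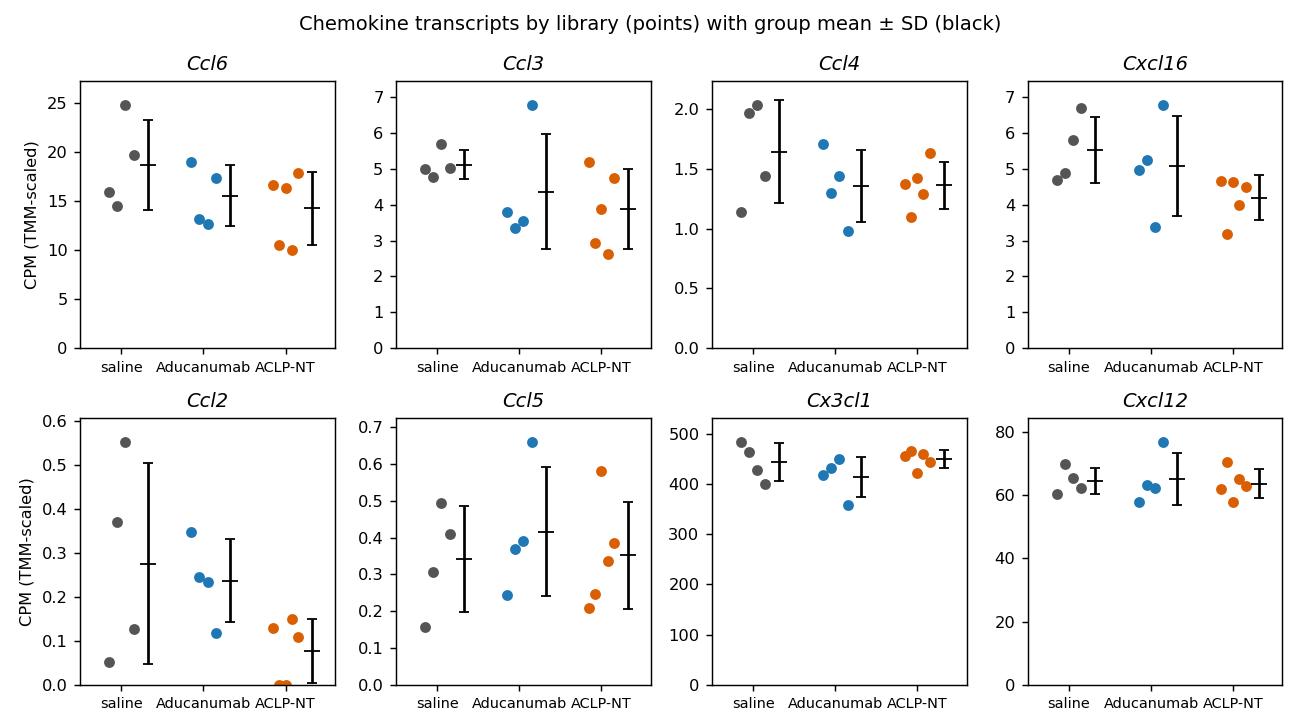
CPM of each chemokine by library (points; saline grey, Aducanumab blue, ACLP-NT orange), with the mean and SD of each group in black; each axis starts at 0. The Cxcl16 points of ACLP-NT (3.18 to 4.67) lie under those of saline (4.70 to 6.69), and every other gene overlaps between groups.

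The comparison of Aducanumab with saline called 0 of 8 members (edgeR adjusted p = 0.9997 for each), beside 0% of genes, and 0 at an unadjusted p under 0.05, beside 1033 genes or 4.68%. DESeq2 called 18 genes or 0.0816% and no member. No member's groups were apart, beside 2.58% of all genes. In ACLP-NT against Aducanumab the counts were 0 members (edgeR adjusted p = 1 for each), beside 0% of genes, and 0 unadjusted, beside 716 genes or 3.24%, with 3 genes or 0.0136% called by DESeq2. No member's groups were apart there either, beside 1.34% of genes. The estimate was below 0 for 6 of 8 members in each of these comparisons, beside 48.7% and 52.4% of genes, with member medians of -0.17 and -0.15. The 3 comparisons share libraries, so these counts are not independent of each other.

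**Figure D3:**
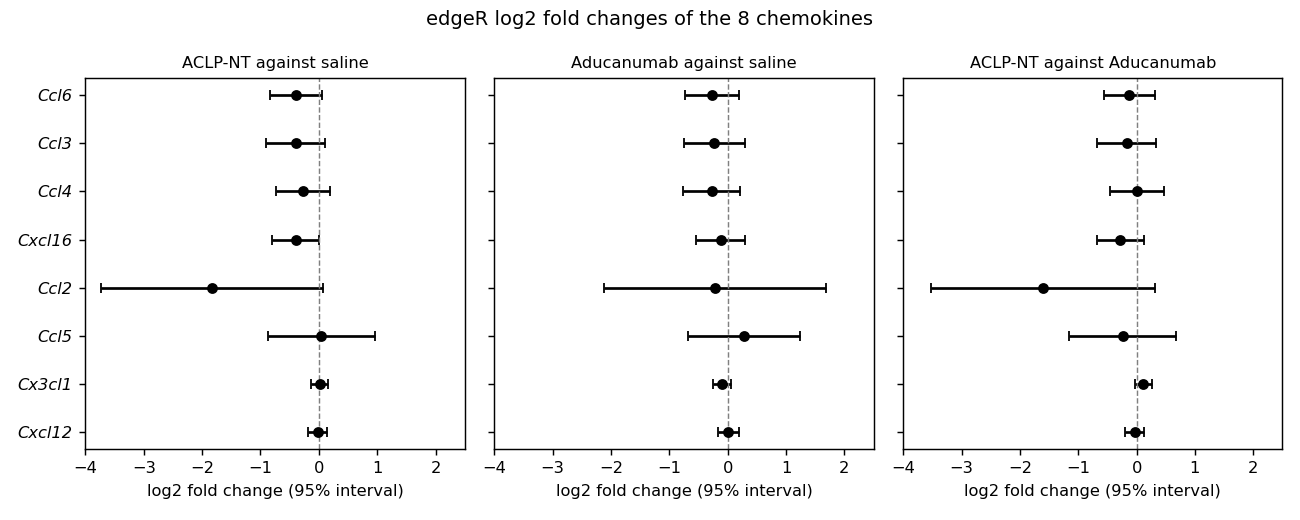
log2 fold change of each chemokine (point) with its 95% interval (bar) in edgeR, for the 3 comparisons. Every interval includes 0; those of Cx3cl1 and Cxcl12 are narrow and those of Ccl2, with counts of 0 to 37, are wide.

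Among the animals, Ccl6, Ccl3 and Cxcl16 followed the microglial markers. A microglial score was taken as the mean centred log2 CPM of 7 markers, among them Csf1r, C1qa, Tmem119, P2ry12, Aif1 and Itgam. Over 13 libraries Ccl6 correlated with it at Pearson r = 0.933 and Spearman rho = 0.709 (permutation tests, p = 2e-05 and 0.00859, adjusted over 8 members p = 0.00016 and 0.0344). Ccl3 had r = 0.811 and rho = 0.769 (permutation p = 0.00074 and 0.00298, adjusted 0.00296 and 0.0238), and Cxcl16 had r = 0.765 and rho = 0.665 (permutation p = 0.00256 and 0.0161, adjusted 0.00683 and 0.0430). ACLP-NT 27 and 53 were farthest from the median score, and without them r was 0.865 for Ccl6, 0.625 for Ccl3 and 0.613 for Cxcl16. Ccl2, Ccl4, Ccl5, Cx3cl1 and Cxcl12 did not pass, with r from -0.40 for Cx3cl1 to 0.49 for Ccl4. Correlations of the members with other marker scores were not computed, so these values do not single out microglia. A score taken likewise from the astrocyte markers was highest in Aducanumab 58 (0.178) and lowest in Aducanumab 56 (-0.169). Cxcl16 had 6.77 and 3.37 CPM in these libraries, and its relation to the astrocyte score was not tested.

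The relation did not rest on the treatment groups alone. With each library taken as its deviation from its group mean, r was 0.942 for Ccl6, 0.749 for Ccl3 and 0.699 for Cxcl16 (permutation tests, adjusted p = 0.00016, 0.0112 and 0.0186). On that scale Cx3cl1 passed narrowly in the opposite direction, with r = -0.633 and rho = -0.654 (permutation tests, adjusted p = 0.0411 and 0.0370), and r = -0.696 without the 2 farthest libraries. These permutations exchanged libraries across groups and did not allow for the group means taken out, so p-values on this scale are too small. The pass of Cx3cl1, near the threshold, may therefore not hold. The neuronal marker score ran from -0.23 to 0.12 and was lowest in Aducanumab 58, which was also lowest for Cx3cl1; its part in this relation was not tested.

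**Figure D4:**
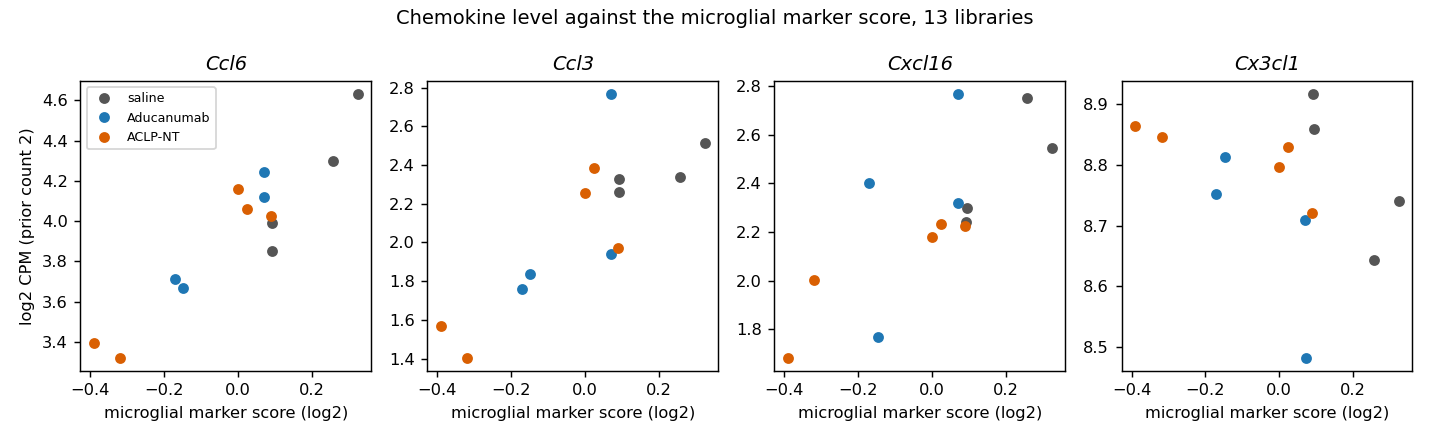
log2 CPM of 4 chemokines against the microglial marker score in 13 libraries (points; saline grey, Aducanumab blue, ACLP-NT orange). Ccl6, Ccl3 and Cxcl16 are higher where the score is higher (r = 0.933, 0.811 and 0.765), with ACLP-NT 27 and 53 at the low end; the pooled r of Cx3cl1 is -0.397 and did not pass.

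The microglial markers had lower estimates in both treated groups. Their summed level was 850 to 1052 CPM in saline, 720.1 to 880 CPM in Aducanumab and 602 to 875 CPM in ACLP-NT, and the estimate was below 0 for 7 of 7 markers in both comparisons with saline, beside 50.6% and 48.7% of all genes, none passing the edgeR adjustment. At an unadjusted p under 0.05 these were 6 of 7 markers with ACLP-NT and 2 of 7 with Aducanumab, beside 5.88% and 4.68% of all genes. The 6 plaque microglia markers Cst7, Clec7a, Itgax, Trem2, Tyrobp and Lpl summed to 219 to 309 CPM in saline, 188 to 259 CPM in Aducanumab and 140.2 to 241 CPM in ACLP-NT. With the score as a covariate, the log2 fold change for ACLP-NT against saline was 0.10 ± 0.23 (SE) for Ccl3, 0.21 ± 0.12 for Ccl6 and -0.02 ± 0.20 for Cxcl16, in place of -0.40, -0.39 and -0.40. For Aducanumab against saline it was 0.15 ± 0.21, 0.20 ± 0.11 and 0.17 ± 0.19. These members make no part of the score. None passed with or without the covariate.

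Between members, 28 pairs were compared. None passed on both measures, and on Pearson r alone 5 did. Ccl3 and Ccl6 had r = 0.792, Ccl3 and Cxcl16 0.733, and Ccl6 and Cxcl16 0.725, while Ccl5 with Cx3cl1 had -0.731 and Cxcl16 with Cx3cl1 -0.719 (permutation tests, adjusted p = 0.0314 for each). The rank correlations of these pairs were 0.736, 0.676, 0.670, -0.703 and -0.654 (permutation tests, adjusted p = 0.0854 for each). Without the 2 libraries farthest from the median, r was nearer to 0 in each, at 0.577, 0.619, 0.580, -0.469 and -0.589 in the same order. As deviations from group means, Cxcl16 and Cx3cl1 passed on both measures, with r = -0.845 and rho = -0.857 (permutation tests, adjusted p = 0.0109 and 0.0123), and r = -0.909 without the 2 libraries farthest from the median. On this scale the p-values are again too small, as the group means taken out were not allowed for. Ccl3 and Ccl4, though neighbours on the chromosome, had r = 0.120 and rho = 0.181 (permutation p = 0.695 and 0.553, adjusted 0.803 and 0.815).

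The genes most like each member were taken from 13508 genes with a mean count of at least 100, by Spearman rho over the 13 libraries, as a description. For Ccl6 they were Bin2 (0.923), Tyrobp (0.918), a signalling adaptor of Trem2 and a plaque microglia marker, and Cst3 (0.912), which encodes cystatin C. For Ccl3 they were H2-Ob (0.973), Tgfbr1 (0.945), a TGF-beta receptor, and Il4ra (0.940), the interleukin-4 receptor chain. For Cxcl16 they were Abhd3 (0.956), Tnfaip8l2 (0.929) and Mlph (0.907). For Cx3cl1 they were Ext1 (0.912) and Stradb (0.890), and for Cxcl12 Nfat5 (0.907), Sfi1 (0.885) and Acsbg1 (0.868). No test was made of these values.

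Of the receptors, Cx3cr1, the fractalkine receptor of microglia, was the most abundant, with 101, 102, 115 and 113 CPM in saline. It had 96.9, 83.0, 78.2 and 97.1 CPM in Aducanumab and 94.7, 72.2, 97.3, 74.5 and 97.2 CPM in ACLP-NT. Every treated library was below every saline library. In single comparisons, groups did not overlap in either direction for 2.26% of all genes with ACLP-NT (1.33% lower) and 2.58% with Aducanumab. The share for both comparisons together was not counted. The log2 fold change of Cx3cr1 was -0.31 ± 0.10 (SE; edgeR unadjusted p = 0.00852, adjusted 0.746) for ACLP-NT and -0.28 ± 0.11 (unadjusted p = 0.0195, adjusted 0.9997) for Aducanumab. Its ligand Cx3cl1 had fold changes of 0.02 and -0.10 in the same libraries. The microglial marker Csf1r was also below saline without overlap in both comparisons, with log2 fold changes of -0.293 for ACLP-NT and -0.225 for Aducanumab. It was the only 1 of the 7 microglial markers to do so in either comparison, and the others overlapped. Ackr3, which scavenges Cxcl12, had a mean of 15.9 CPM in saline, 19.4 in Aducanumab and 19.2 in ACLP-NT. Its log2 fold changes were 0.28 ± 0.11 and 0.27 ± 0.10 (edgeR unadjusted p = 0.0201 and 0.0204, adjusted 0.9997 and 0.776). An unadjusted p under 0.05 was found for 4.68% and 5.88% of all genes, and both comparisons share the saline libraries. The groups overlap, with saline 32 at 19.2 CPM, Aducanumab 50 at 17.4 and ACLP-NT 49 at 16.9. Cxcr4, the signalling counterpart of Ackr3, had 2.97, 3.13 and 3.06 CPM in saline, Aducanumab and ACLP-NT.

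Of the 12 receptors, scavenging receptors and sheddases, 11 were tested and 0 passed the adjustment in any comparison. Adam10 (86.6, 83.5 and 84.0 CPM in saline, Aducanumab and ACLP-NT) and Adam17 (25.2, 24.3 and 23.9) had log2 fold changes against saline between -0.07 and -0.04. Ccr1, Ccr2, Cxcr6 and Ackr2 had mean counts of 26.3, 24.0, 16.7 and 51.6, and Ccr3, with a mean of 2.15, was not tested. Ackr1 had 23.4 CPM, but it overlaps Cadm3 on the same strand, which had 356 CPM, so its level is uncertain. Cxcr6 overlaps Fyco1 (114 CPM) on the opposite strand and is uncertain likewise.

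Of 29 other chemokines in the table, 18 were tested and 0 reached an unadjusted p under 0.05 in any comparison, in which 5.88%, 4.68% and 3.24% of all genes did. Of all 29, 11 had a mean of at least 0.5 FPKM. Cxcl14 was the highest at 34.6 FPKM and Ccl27a followed at 14.01, though reads may be split between the near-identical copies Ccl27a and Ccl27b (1.97). The same holds for Ccl21b (2.36), which has a close copy in Ccl21a. Cxcl10, an interferon-induced ligand of Cxcr3, had 1.36 FPKM and a mean of 4.04 CPM in saline, 3.12 in Aducanumab and 2.90 in ACLP-NT, with a log2 fold change of -0.48 ± 0.41 (SE) for ACLP-NT against saline. Ccl9, a myeloid CC chemokine, had 3.45, 3.89 and 3.002 CPM in the same order. Ccl12 (1.21 FPKM), Ccl25 (1.08), Cxcl5 (1.14), Ccl28 (0.797) and Pf4 (0.552) made up the rest. Genes on the opposite strand overlap Ccl25 (Elavl1, 83.0 CPM against 8.73 for Ccl25), Ccl27a (Il11ra1, 32.4 against 36.0) and Cxcl10 (Art3, 2.18 against 3.32), so these levels are uncertain likewise.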

How the data were processed

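Poly(A) RNA of 13 hippocampus libraries was sequenced. Per the submitters' processing notes, edgeR (version not stated), HISAT2 2.0.4, cutadapt 1.9 and StringTie 1.3.4d were used, with no role given. The counter, its use of strand and the build are not stated. Per the file headers, the authors deposited raw counts and FPKM values per gene, the latter relative to length and library size.

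Counts were filtered with filterByExpr (22065 genes tested), scaled by TMM and tested with edgeR 4.0.16 (R 4.3.3; quasi-likelihood, two-sided, the 3 groups in 1 fit, common biological coefficient of variation 0.226), with Benjamini-Hochberg adjustment over all genes tested and a threshold of 0.05. The SE was derived as |log2 fold change| over the root of the F statistic. CPM are edgeR values after TMM. Single members were also compared by exact permutation on log2 CPM (prior count 2), and correlations by permutation with 100000 resamples. For deviations from group means, the resampling ran across groups and did not allow for the means taken out. Library totals ran from 53642019 to 69734713, and floors (3 counts) and counting errors cover counting error only.

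The members, marker lists and tests were chosen with earlier results of these data known. Named genes are all members, 12 receptors and sheddases, other chemokines with a mean of at least 0.5 FPKM or an adjusted p under the threshold, and the 3 genes most like each member with a mean count of at least 100, leaving out pseudogenes and predicted genes. A few genes under this rule are not reported here, though they stay in the counts and scores. Alternatives were other filters, scalings, DESeq2 1.42.0, limma 3.58.1 on log2 FPKM, a robust fit, only the groups compared, marker scores as covariates and each library left out. No batch is labelled.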

Additional observations from a re-analysis of the deposited data

Results flagged for a closer look

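Ccl3 in the library of Aducanumab animal 58, at 6.769 CPM, stood apart from the other Aducanumab libraries, the nearest of which had 3.80 CPM. The gap was 0.868 of the range of the 4 libraries. Of 24 sets of 1 member in 1 group that were checked, it was the only one so marked, and chance marks about 1 in 20. The same library was the highest of all 13 for Ccl3, Ccl5, Cxcl16 and Cxcl12 and the lowest for Ccl4 and Cx3cl1, which makes it an extreme for 6 of 8 members. It also had the highest summed level of the choroid plexus markers (4931 CPM), the border macrophage markers (20.6 CPM), the meningeal fibroblast markers (211 CPM), the endothelium and pericyte markers (279 CPM), the astrocyte markers (1232 CPM) and the neutrophil and monocyte markers (3.27 CPM), and the lowest of the neuronal markers (3170 CPM). The part of these in its chemokine levels was not tested. Without it, the log2 fold change of Ccl3 was -0.52 for Aducanumab against saline and 0.12 for ACLP-NT against Aducanumab.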

How the results depend on the processing

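Of 568 log2 fold changes of members under alternatives, 535 kept their direction and 33 changed sign. No member was called under any of them, the smallest adjusted p being 0.654 in edgeR or limma and 0.738 in DESeq2. Over all genes, DESeq2 called 9 genes in ACLP-NT against saline, 18 in Aducanumab against saline and 3 in ACLP-NT against Aducanumab, where edgeR called 0. With a library left out, edgeR called 0 to 1 gene in each comparison; the 1 appeared without saline 32 in both comparisons with saline, and without ACLP-NT 49 in Aducanumab against saline and in ACLP-NT against Aducanumab. The microglial score did not overlap between saline and either treated group. With this score as a covariate, ACLP-NT against saline turned to 0.10 for Ccl3, 0.21 for Ccl6 and -0.11 for Cx3cl1. Aducanumab against saline turned to 0.064 for Ccl2, 0.15 for Ccl3, 0.20 for Ccl6, 0.17 for Cxcl16 and -0.038 for Cxcl12, and ACLP-NT against Aducanumab to 0.0085 for Ccl6. With the choroid plexus score, Ccl5 turned to -0.086 in ACLP-NT against saline and Cxcl12 to -0.0053 in Aducanumab against saline. Ccl2 turned to 0.0019 in Aducanumab against saline with limma on log2(FPKM + 0.1). The cause was not tested. Leaving out 1 library at a time, ACLP-NT against saline ran from -0.22 to 0.27 for Ccl5, -0.027 to 0.062 for Cx3cl1 and -0.058 to 0.022 for Cxcl12. Aducanumab against saline ran from -0.56 to 0.36 for Ccl2, -0.033 to 0.51 for Ccl5, -0.29 to 0.034 for Cxcl16 and -0.075 to 0.065 for Cxcl12. ACLP-NT against Aducanumab ran from -0.30 to 0.12 for Ccl3, -0.12 to 0.14 for Ccl4, -0.49 to 0.073 for Ccl5 and -0.085 to 0.057 for Cxcl12. Of 28 pairs of members, 0 passed on both measures over the libraries and 1 as deviations from group means, where the p-values are too small. Low counts limit Ccl2 and Ccl5. No paired analysis was possible because the groups share no replicate number.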
